A study of Rattus norvegicus with 8 samples.

Results

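The genes of cholesterol synthesis and of its regulator SREBP2 were followed in rat liver RNA as a set of 28 genes among the 30562 of the count table. They were chosen by name and role, with no threshold on measured values. The set holds 20 enzymes of the route from acetyl-CoA to cholesterol, 4 genes that control SREBP2, and 4 genes that carry, store or limit the uptake of cholesterol. Every symbol was found in the table, and all 28 genes passed the filter on low counts. The libraries came from the liver of Wistar rats, an outbred stock with no engineered allele in the labels, all described as male and weighing 160 g at the start. Of 20 rats assigned to 4 groups of 5, 2 per group were sequenced, each as a library of its own. The AT_HCB group was given both agents. The HCB group was given hexachlorobenzene, a chlorinated fungicide and persistent pollutant, as gavages of 100 mg/kg, 3 per week over 30 days. The AT group drank atorvastatin, a statin that blocks the step of the route that makes mevalonate, at a stated 5 mg/kg per day. The control group was given vehicle alone, and the livers of all groups were taken on day 37. The recipe of the drinking water, 5 mg in the daily 20 mL of a rat, comes to 31.25 mg/kg at the starting weight, so the statin dose is uncertain.

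Cholesterol is assembled from acetyl-CoA through mevalonate, the isoprenoid pyrophosphates, squalene and lanosterol, and the liver is one of its main sites of synthesis. The transcription factor SREBP2, made from Srebf2, is held in the endoplasmic reticulum by Scap and the Insig proteins while sterols are plentiful. When sterols fall, Scap escorts SREBP2 to the Golgi, proteases release its active domain, and transcription of nearly every enzyme of the route rises. Statins are known to start this response in rodent liver by lowering the sterol content of hepatocytes. SREBP2 acts in promoters beside NF-Y, which binds the CCAAT box, and Sp1, which binds the GC box.

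The libraries labelled with HCB also differed from the others in sex-linked and fetal transcripts, which the labels do not mention and which stand beside every HCB comparison below. All rats are labelled male, yet the Y-linked gene Kdm5d stood at 24.9 and 25.1 CPM (counts scaled to normalised library size) in AT_HCB libraries and at 27.4 and 26.2 CPM in HCB libraries. It stood at 0.383 and 0.457 CPM in AT libraries and at 0.229 and 0.189 CPM in control libraries. The fetal liver transcript Afp stood at 85.1 and 70.3 CPM in AT_HCB libraries and at 145 and 70.1 CPM in HCB libraries, against 11414 and 24173 CPM in AT libraries and 11860 and 29746 CPM in control libraries. Each library held between 29.4 M and 52.0 M assigned reads (M, mega). Reads left out because they mapped to several places took 20.3%, 19.4% and 21.0% in replicate 1 of control, of HCB and of AT. They took 10.4% to 13.2% in the other libraries. Reads in no annotated exon took 7.46% to 11.4% in the 4 HCB-labelled libraries and 15.3% to 34.04% in the other 4, with the most in replicate 1 of AT and of control. The HCB label, the Y-linked and fetal transcripts and the share of reads outside exons therefore cannot be told apart in these comparisons.

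Promoter windows were at hand for 23 of the 28 genes, as RefSeq sequences of build GRCr8 that run from 250 bases before to 50 bases after the annotated start. Pmvk, Fdft1, Sqle, Stard4 and Soat2 had no window. A single window was used per gene, the first listed where there were several. Sequences are shown for 3 contrasts that return in the results: the pair Insig2 and Insig1, the pair Tm7sf2 and Lbr, and Nsdhl beside Dhcr7, whose windows hold the most CCAAT boxes and none. Capitals mark CCAAT, or ATTGG where the box lies on the opposite strand. The windows are Insig2 at chr13:35040049-35040348 (minus strand), Insig1 at chr4:8057720-8058019 (minus strand), Tm7sf2 at chr1:212789492-212789791 (minus strand), Lbr at chr13:96095660-96095959 (minus strand), Nsdhl at chrX:155817110-155817409 (plus strand) and Dhcr7 at chr1:208444184-208444483 (plus strand).
Insig2: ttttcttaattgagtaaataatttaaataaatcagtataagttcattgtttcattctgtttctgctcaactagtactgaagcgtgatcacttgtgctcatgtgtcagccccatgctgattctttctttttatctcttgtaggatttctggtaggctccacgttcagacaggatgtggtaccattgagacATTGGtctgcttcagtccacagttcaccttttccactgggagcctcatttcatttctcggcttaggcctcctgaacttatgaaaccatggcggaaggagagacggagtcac
Insig1: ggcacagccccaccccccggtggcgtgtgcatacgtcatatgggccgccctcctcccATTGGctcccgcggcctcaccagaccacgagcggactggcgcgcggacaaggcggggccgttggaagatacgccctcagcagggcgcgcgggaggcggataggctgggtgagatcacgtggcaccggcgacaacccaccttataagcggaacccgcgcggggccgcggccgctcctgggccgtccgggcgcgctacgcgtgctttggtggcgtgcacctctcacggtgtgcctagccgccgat
Tm7sf2: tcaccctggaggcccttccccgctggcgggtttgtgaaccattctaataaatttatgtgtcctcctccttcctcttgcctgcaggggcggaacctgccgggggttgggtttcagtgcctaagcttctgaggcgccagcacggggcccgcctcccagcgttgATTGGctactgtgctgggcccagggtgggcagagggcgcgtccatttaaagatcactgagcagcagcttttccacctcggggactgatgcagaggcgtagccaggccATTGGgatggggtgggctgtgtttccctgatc
Lbr: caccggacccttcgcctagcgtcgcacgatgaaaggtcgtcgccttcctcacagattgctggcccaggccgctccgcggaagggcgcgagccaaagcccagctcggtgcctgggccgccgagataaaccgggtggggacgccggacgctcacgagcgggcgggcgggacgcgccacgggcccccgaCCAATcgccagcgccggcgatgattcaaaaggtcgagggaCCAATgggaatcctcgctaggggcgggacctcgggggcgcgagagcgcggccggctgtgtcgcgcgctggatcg
Nsdhl: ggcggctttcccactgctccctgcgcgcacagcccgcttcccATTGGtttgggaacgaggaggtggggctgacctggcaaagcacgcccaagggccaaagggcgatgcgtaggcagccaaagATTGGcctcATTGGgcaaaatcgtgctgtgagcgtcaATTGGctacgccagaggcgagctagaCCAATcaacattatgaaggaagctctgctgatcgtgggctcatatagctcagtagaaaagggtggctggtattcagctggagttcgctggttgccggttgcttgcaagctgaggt
Dhcr7: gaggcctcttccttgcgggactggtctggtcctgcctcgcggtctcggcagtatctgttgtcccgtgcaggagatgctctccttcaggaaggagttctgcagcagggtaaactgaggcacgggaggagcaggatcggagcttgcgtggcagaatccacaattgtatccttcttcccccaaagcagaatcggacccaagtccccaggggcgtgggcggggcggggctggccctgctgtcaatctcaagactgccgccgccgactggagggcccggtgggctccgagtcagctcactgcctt

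The letters CCAAT, read on both strands, occurred in 19 of the 23 windows (82.6%), against 37.5% of all 33469 promoters in the table and 37.9% of the 15378 of protein-coding genes. Matches numbered 39, of which 31 began within the 150 bases before the start. Mvk and Nsdhl held 5 each, and Acat2, Cyp51, Dhcr7 and Scap held none. The GC box GGGCGG, also read on both strands, occurred in 19 of the 23 windows, against 33.1% of all promoters and 48.9% of coding ones. The sterol element core TCACNCCAC was not in any of the 23 windows, nor was the E-box-like TCACNTGA, and these letters occur in 1.12% and 3.93% of all promoters. The motifs were counted separately, with overlapping matches kept. A match is a description of the sequence, not a shown binding site, and no match says only that these letters are not in this window.

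**Figure D1:**
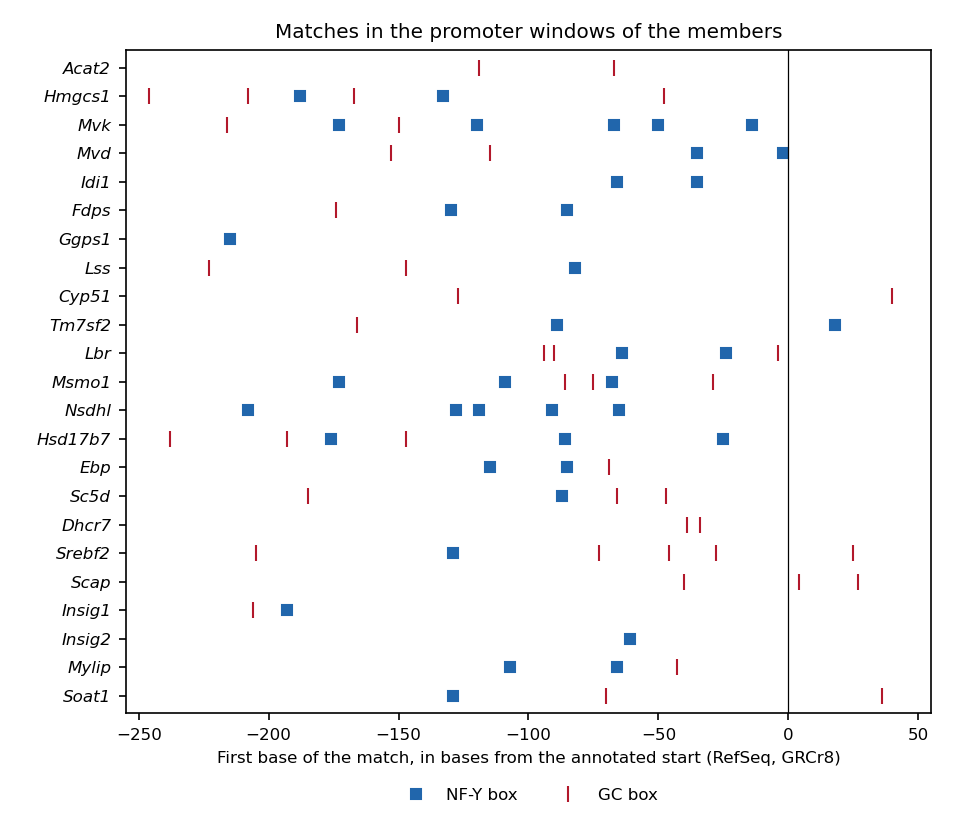
Positions of NF-Y boxes (squares, the 5 letters CCAAT on either strand) and GC boxes (vertical ticks) in the promoter windows of 23 genes, by distance in bases from the annotated start, which is the vertical line at 0. Of 39 NF-Y boxes, 31 began in the 150 bases before the start, and Acat2, Cyp51, Dhcr7 and Scap show none.

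In the livers labelled HCB, 9 of the 20 enzymes of cholesterol synthesis rose over control livers and 1 fell, while the genes around SREBP2 changed in both directions. Dhcr7, which makes cholesterol in the last step of the Kandutsch-Russell branch, was 4.66 times as high in HCB as in control livers. Insig2, an anchor that holds SREBP2 in the endoplasmic reticulum, was 8.56 times as high. Scap, the escort of SREBP2, was 2.31-fold lower, and Srebf2 itself did not pass the test. Of the 28 genes, 10 rose and 4 fell at an adjusted p under 0.05 (edgeR quasi-likelihood test, Benjamini-Hochberg adjustment over 16591 genes), which is 14 genes where 26.92% of all genes tested were called, 13.05% higher and 13.87% lower. Scaled by total counts, 9 of the 28 rose and 4 fell, and of all genes 1041 were called higher and 3270 lower, against 2165 and 2301 here. DESeq2 called 13 of them higher and 4 lower, and 28.62% of all genes. HCB libraries lay wholly above control libraries for 21 genes and wholly below for 4, as did 29.50% and 35.01% of all genes. The median log2 change was 0.79 over the 28 genes and 1.08 over the 20 enzymes, against -0.09 over all genes tested. Replicate 1 of control and replicate 1 of HCB weighed most. Without the first, 6 genes were called, and Acat2, Mvd, Idi1, Cyp51, Tm7sf2, Msmo1, Sc5d and Mylip were lost. Without the second, 8 were called, and Acat2, Idi1, Cyp51, Lbr, Msmo1 and Sc5d were lost. Replicate 1 of control and of HCB also had the high shares of reads mapped to several places given above, and the part of those shares was not tested. The p-values measure the spread between these libraries only.

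Rats given both agents were set against rats given atorvastatin alone, a second HCB comparison with no library in common with the first. Fewer genes passed here: 5 rose and 4 fell, 9 genes where 27.55% of all genes were called, 12.56% higher and 14.99% lower. The 5 that rose, Pmvk, Tm7sf2, Sc5d, Dhcr7 and Insig2, had also risen in HCB against control livers, and the 4 that fell, Lbr, Scap, Mylip and Soat1, had also fallen there, and these 9 are given below with their positions on build mRatBN7.2, the build of the counts. A further 5 genes passed in the first comparison alone, none in the second alone, and 14 in neither. The 9 of 28 called here, and the 4 of 28 that fell, are close to the 27.55% and 14.99% of all genes. How many of all genes were called alike in both comparisons was not counted, so the overlap is a description of these genes only. AT_HCB libraries lay wholly above AT libraries for 8 genes and wholly below for 4, as did 33.24% and 38.75% of all genes. The median log2 change was 0.26 over the 28 genes and 0.46 over the 20 enzymes, against -0.11 over all genes. Scaled by total counts, which moves the median of all genes by -0.622, the median over the enzymes was -0.08, 3 of the 28 rose and 4 fell, and of all genes 821 were called higher and 4706 lower, against 2084 and 2487 here. The AT libraries pulled in opposite directions: without replicate 1 of AT, the count was 5 genes and the median over the enzymes 0.02, and without replicate 2 of AT, the count was 13 and the median 1.08. The second omission added Acat2, Mvd, Cyp51, Nsdhl and Ebp and lost Tm7sf2, and the first lost Pmvk, Tm7sf2, Sc5d and Mylip. Without replicate 1 of AT_HCB, the count was 3, with Lbr, Scap, Soat1, Mylip, Pmvk and Tm7sf2 lost. Without replicate 2 of AT_HCB, the count was 6, with Pmvk, Sc5d and Mylip lost, and the median over the enzymes was 0.25. DESeq2 called 7 of them higher and 4 lower, and 28.65% of all genes.

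**Figure D2:**
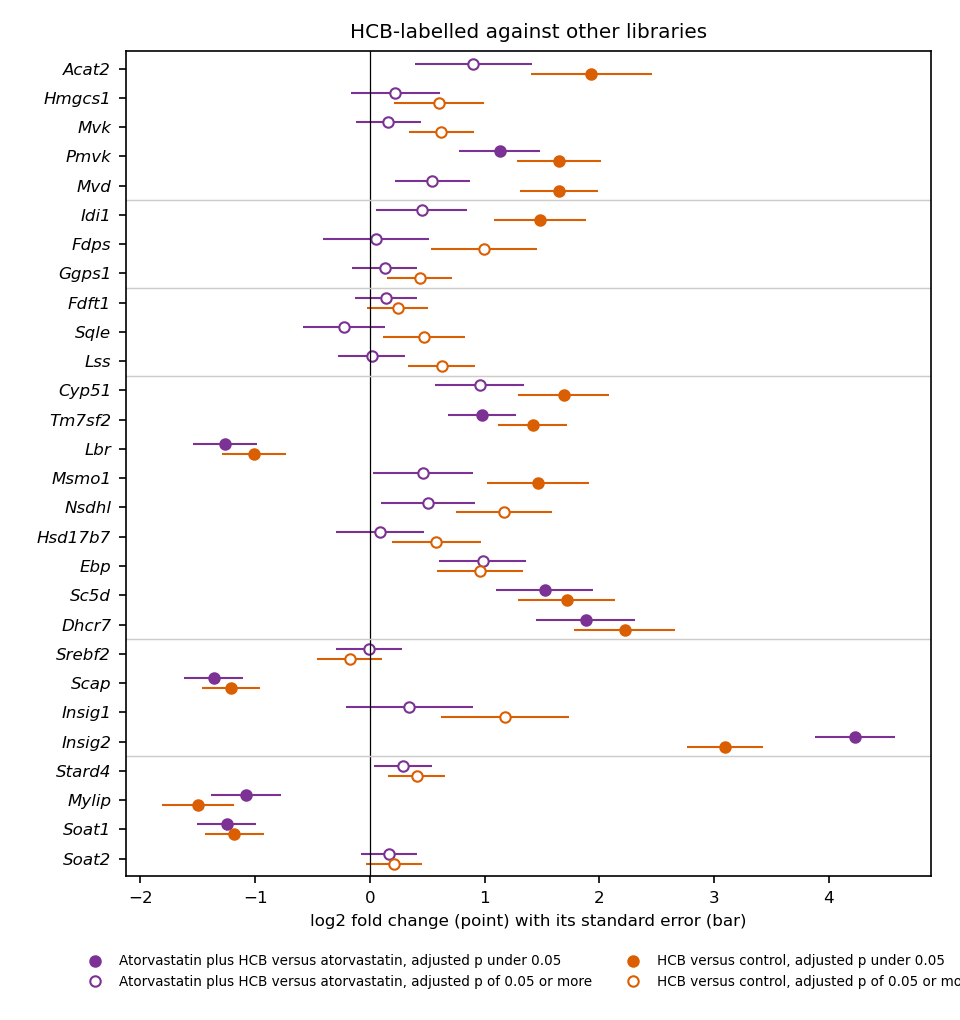
log2 fold changes (points) with their standard errors (bars) of the 28 genes in AT_HCB against AT livers (purple) and in HCB against control livers (orange), where filled points have an adjusted p under 0.05 in edgeR and grey lines part the roles. Insig2 stands farthest to the right in both, at 4.22 and 3.10, and Lbr, Scap, Mylip and Soat1 stand at -1.01 or below in both.

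The first steps, from acetyl-CoA to mevalonate and its activated forms, gained transcript in HCB livers at 3 of 5 enzymes. Over all genes tested, 13.05% were called higher in HCB than in control livers. Acat2, the thiolase that joins acetyl-CoA units, had 74.8 and 74.4 CPM in HCB livers, against 12.7 and 26.4 CPM in control livers, a log2 change of 1.93 ± 0.53 (edgeR adjusted p = 0.0235). Both HCB libraries stood nearly level with each other and above both control libraries. In AT_HCB livers Acat2 had 47.4 and 70.6 CPM, against 14.2 and 48.8 CPM in AT livers, and did not pass (0.90 ± 0.51, edgeR adjusted p = 0.213). There, replicate 2 of AT overlapped the AT_HCB libraries. Pmvk (chromosome 2, 174876657 to 174886364), which adds the second phosphate to mevalonate, had 7.76 and 10.7 CPM in HCB livers, against 2.95 and 2.94 CPM in control livers (1.65 ± 0.36, edgeR adjusted p = 0.00734). It had 10.3 and 12.1 CPM in AT_HCB livers, against 3.35 and 6.87 CPM in AT livers (1.13 ± 0.35, edgeR adjusted p = 0.0356). Pmvk was thus scarce in every library, and in both comparisons the groups did not overlap. Scaled by total counts, it no longer passed in AT_HCB against AT livers (0.57, edgeR adjusted p = 0.244).

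Mvd, the decarboxylase that yields isopentenyl pyrophosphate, had 31.6 and 34.1 CPM in HCB livers, against 9.17 and 11.8 CPM in control livers (1.65 ± 0.34, edgeR adjusted p = 0.00505). It had 17.2 and 24.5 CPM in AT_HCB livers, against 9.51 and 19.1 CPM in AT livers, and did not pass (0.54 ± 0.33, edgeR adjusted p = 0.237). HCB libraries were the highest of all 8, and the other groups ran into each other. Hmgcs1, the synthase that makes HMG-CoA, had 1171 and 1105 CPM in HCB livers, against 640.3 and 860.4 CPM in control livers (0.60 ± 0.39, edgeR adjusted p = 0.28). It did not pass in either comparison, with 0.22 ± 0.39 in AT_HCB against AT livers. Mvk, mevalonate kinase, gave 0.62 ± 0.28 (edgeR adjusted p = 0.129) in HCB against control livers and 0.16 ± 0.28 in AT_HCB against AT livers.

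Among the 3 isoprenoid enzymes, Idi1 alone passed, in HCB against control livers, where 26.92% of all genes tested were called. Idi1, which isomerises isopentenyl pyrophosphate, had 252 and 136 CPM in HCB livers, against 53.5 and 85.1 CPM in control livers (1.48 ± 0.40, edgeR adjusted p = 0.0203). Replicate 1 of HCB was the highest of all libraries, and both HCB libraries lay above the controls. In AT_HCB livers it had 82.9 and 110.6 CPM, against 46.9 and 94.6 CPM in AT livers (0.45 ± 0.40, edgeR adjusted p = 0.414). Reads of Idi1 were counted without strand, and its exons overlap those of Wdr37 on the opposite strand, which had 6600 reads in all libraries together. Fdps, the synthase of farnesyl pyrophosphate, had 512 and 377 CPM in HCB livers, against 176 and 271 CPM in control livers (0.99 ± 0.46, edgeR adjusted p = 0.136). Its AT libraries lay far apart, at 153 and 477 CPM, with the second above one HCB library. Ggps1, which makes the geranylgeranyl donor for protein prenylation, gave 0.43 ± 0.28 in HCB against control livers and stayed between 6.75 and 12.2 CPM in all libraries.

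No enzyme between farnesyl pyrophosphate and lanosterol passed in either comparison. Fdft1, squalene synthase, had 196 and 213 CPM in HCB livers, against 174 and 171 CPM in control livers (0.24 ± 0.27, edgeR adjusted p = 0.538). Sqle, the oxygenase that makes squalene epoxide, had 108 and 119 CPM in HCB livers, against 62.3 and 101 CPM in control livers (0.47 ± 0.36, edgeR adjusted p = 0.351). Lss, the cyclase that closes the sterol rings, had 36.9 and 56.4 CPM in HCB livers, against 33.1 and 27.4 CPM in control livers (0.62 ± 0.29, edgeR adjusted p = 0.137). HCB libraries lay above controls for all 3, as for 29.50% of all genes, and the test did not call the differences. In AT_HCB against AT livers the log2 changes were 0.14 ± 0.27 for Fdft1, -0.22 ± 0.36 for Sqle and 0.02 ± 0.29 for Lss, with overlapping groups.

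After lanosterol, 5 of 9 genes rose and 1 fell in HCB against control livers, and 3 rose and 1 fell in AT_HCB against AT livers. Over all genes tested, 13.05% were called higher and 13.87% lower in the first comparison, and 12.56% and 14.99% in the second. Dhcr7 (chromosome 1, 199015081 to 199031055), which reduces 7-dehydrocholesterol to cholesterol, had 147 and 189.6 CPM in HCB livers, against 25.7 and 46.7 CPM in control livers (2.22 ± 0.44, edgeR adjusted p = 0.00432). It had 195 and 193 CPM in AT_HCB livers, against 28.5 and 76.7 CPM in AT livers (1.88 ± 0.43, edgeR adjusted p = 0.00935). All 4 HCB-labelled libraries lay above all 4 others, and Dhcr7 passed in both comparisons under every one of the 17 alternatives. Its promoter window, printed above, holds no CCAAT box. Sc5d (chromosome 8, 42632672 to 42641273), the desaturase just before it, had 466 and 454 CPM in HCB livers, against 121 and 159.7 CPM in control livers (1.72 ± 0.43, edgeR adjusted p = 0.0134). It had 383 and 529 CPM in AT_HCB livers, against 84.4 and 232 CPM in AT livers (1.53 ± 0.42, edgeR adjusted p = 0.022). Here too the 4 HCB-labelled libraries lay above the other 4.

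Cyp51, the lanosterol demethylase, had 511 and 406 CPM in HCB livers, against 109 and 176 CPM in control livers (1.69 ± 0.39, edgeR adjusted p = 0.00998). It had 362 and 422 CPM in AT_HCB livers, against 126 and 278 CPM in AT livers (0.96 ± 0.39, edgeR adjusted p = 0.088). Groups did not overlap in the second comparison, though it did not pass in edgeR. Msmo1, which oxidises the methyl groups at carbon C4, had 387 and 326 CPM in HCB livers, against 105 and 154 CPM in control livers (1.46 ± 0.44, edgeR adjusted p = 0.0327). In AT_HCB livers it had 135 and 296 CPM, against 96.3 and 216 CPM in AT livers (0.47 ± 0.44, edgeR adjusted p = 0.447). The call in HCB against control livers was lost without any one of the 4 libraries compared (edgeR adjusted p = 0.0626 to 0.21). Its AT_HCB libraries were further apart than its HCB libraries and straddled an AT library. Nsdhl, the next enzyme of the demethylation and the gene with 5 CCAAT boxes above, had 618 and 481 CPM in HCB livers, against 204 and 284 CPM in control livers, and missed the threshold (1.17 ± 0.42, edgeR adjusted p = 0.0588). Replicate 2 of AT stood at 491 CPM, above 3 of the 4 HCB-labelled libraries. Ebp, the isomerase that moves the ring double bond, missed it in both comparisons, with 0.96 ± 0.38 (edgeR adjusted p = 0.083) in HCB against control livers and 0.98 ± 0.38 (edgeR adjusted p = 0.0748) in AT_HCB against AT livers. Its 4 HCB-labelled libraries, at 112 to 140 CPM, lay above the 4 others, at 37.1 to 91.0 CPM. Hsd17b7, which reduces the 3-keto group, gave 0.58 ± 0.39 in HCB against control livers and 0.09 ± 0.39 in AT_HCB against AT livers.

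Tm7sf2 and Lbr, both sterol C14 reductases, moved in opposite directions. Tm7sf2 (chromosome 1, 203355931 to 203360270), the reductase of the endoplasmic reticulum, had 69.3 and 44.1 CPM in HCB livers, against 16.9 and 25.5 CPM in control livers (1.42 ± 0.30, edgeR adjusted p = 0.00628). It had 56.0 and 39.2 CPM in AT_HCB livers, against 23.3 and 25.0 CPM in AT livers (0.98 ± 0.30, edgeR adjusted p = 0.0328). Lbr (chromosome 13, 93538920 to 93564017), the lamin B receptor of the inner nuclear membrane, is also a scaffold for chromatin. It had 24.9 and 20.3 CPM in HCB livers, against 33.7 and 57.3 CPM in control livers (-1.01 ± 0.28, edgeR adjusted p = 0.0221). It had 16.2 and 19.8 CPM in AT_HCB livers, against 46.1 and 40.4 CPM in AT livers (-1.26 ± 0.28, edgeR adjusted p = 0.00794). Without replicate 2 of control, the change of Lbr in HCB against control livers was -0.55 (edgeR adjusted p = 0.223), and without replicate 1 or 2 of HCB it did not pass either (edgeR adjusted p = 0.0592 and 0.0971). The HCB-labelled libraries lay above the others for Tm7sf2 and below them for Lbr in both comparisons. Scaled by total counts, Tm7sf2 no longer passed in AT_HCB against AT livers (0.35, edgeR adjusted p = 0.364).

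Among the regulators, Insig2 had the largest change of the 28 genes in both comparisons. Insig2 (chromosome 13, 32473742 to 32494923) had 94.5 and 95.4 CPM in HCB livers, against 10.8 and 11.4 CPM in control livers, 8.56 times as much (3.10 ± 0.33, edgeR adjusted p = 0.000106). It had 242 and 169 CPM in AT_HCB livers, against 7.54 and 14.5 CPM in AT livers, 18.7 times as much (4.22 ± 0.35, edgeR adjusted p = 2.01e-05). The 2 AT_HCB libraries were the highest, the 2 HCB libraries nearly level with each other below them, and the other 4 stood at 7.54 to 14.5 CPM. In mouse and rat liver Insig2 is made from 2 alternative starts, one of them particular to liver, and counts per gene do not separate these. Which of these starts the printed window belongs to was not determined. Insig1, its SREBP2-driven relative, had 518 and 455 CPM in HCB livers, against 101 and 329 CPM in control livers, and did not pass (1.18 ± 0.56, edgeR adjusted p = 0.141). It had 273 and 447 CPM in AT_HCB livers, against 159.7 and 408 CPM in AT livers (0.34 ± 0.55, edgeR adjusted p = 0.662). Replicate 1 of control was the lowest library, and DESeq2 gave an adjusted p of 0.0483 in HCB against control livers. The change there was 0.56 without replicate 1 of control and 2.30 without replicate 2 of control, which passed (edgeR adjusted p = 0.0241), as did the fit with a replicate block (1.46, edgeR adjusted p = 0.0316).

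Scap (chromosome 8, 110306031 to 110360666) had 64.5 and 92.6 CPM in HCB livers, against 189 and 174 CPM in control livers (-1.21 ± 0.25, edgeR adjusted p = 0.00596). It had 83.0 and 86.6 CPM in AT_HCB livers, against 208 and 227 CPM in AT livers (-1.36 ± 0.26, edgeR adjusted p = 0.00327). Every HCB-labelled library lay below every other library. Srebf2 had 98.4 and 164 CPM in HCB livers, against 165 and 132 CPM in control livers (-0.18 ± 0.28, edgeR adjusted p = 0.676). It had 164 and 171 CPM in AT_HCB livers, against 175 and 161 CPM in AT livers (-0.01 ± 0.28, edgeR adjusted p = 0.986). The groups overlapped in both comparisons, and the transcript says nothing of how much SREBP2 was cleaved.

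Of the 4 genes that handle cholesterol after its synthesis, none rose and 2 fell in each comparison. Over all genes tested, 13.87% were called lower in HCB against control livers and 14.99% in AT_HCB against AT livers. Soat1 (chromosome 13, 68552317 to 68597494), the sterol acyltransferase of many tissues that makes cholesteryl esters, had 8.14 and 9.61 CPM in HCB livers, against 18.5 and 21.8 CPM in control livers (-1.18 ± 0.26, edgeR adjusted p = 0.00679). It had 8.07 and 10.8 CPM in AT_HCB livers, against 20.9 and 23.9 CPM in AT livers (-1.25 ± 0.26, edgeR adjusted p = 0.00504). Soat2, the acyltransferase of hepatocytes and enterocytes, gave 0.21 ± 0.25 in HCB against control livers and 0.17 ± 0.25 in AT_HCB against AT livers, and its libraries overlapped. Mylip (chromosome 17, 19286650 to 19308295), the LXR-driven ubiquitin ligase that marks lipoprotein receptors for breakdown, had 6.46 and 7.08 CPM in HCB livers, against 24.2 and 14.02 CPM in control livers (-1.50 ± 0.31, edgeR adjusted p = 0.00542). It had 6.79 and 9.06 CPM in AT_HCB livers, against 18.5 and 15.01 CPM in AT livers (-1.08 ± 0.31, edgeR adjusted p = 0.0241). Stard4, a carrier of sterol between membranes, gave 0.41 ± 0.25 (edgeR adjusted p = 0.247) in HCB against control livers and 0.29 ± 0.25 in AT_HCB against AT livers, and its 8 libraries spanned 41.1 to 68.0 CPM. The counting allowed no split by strand for Hsd17b7, Mvd and Scap, whose exons overlap genes of the opposite strand that had 804, 2 and 32 reads in all libraries together.

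**Figure D3:**
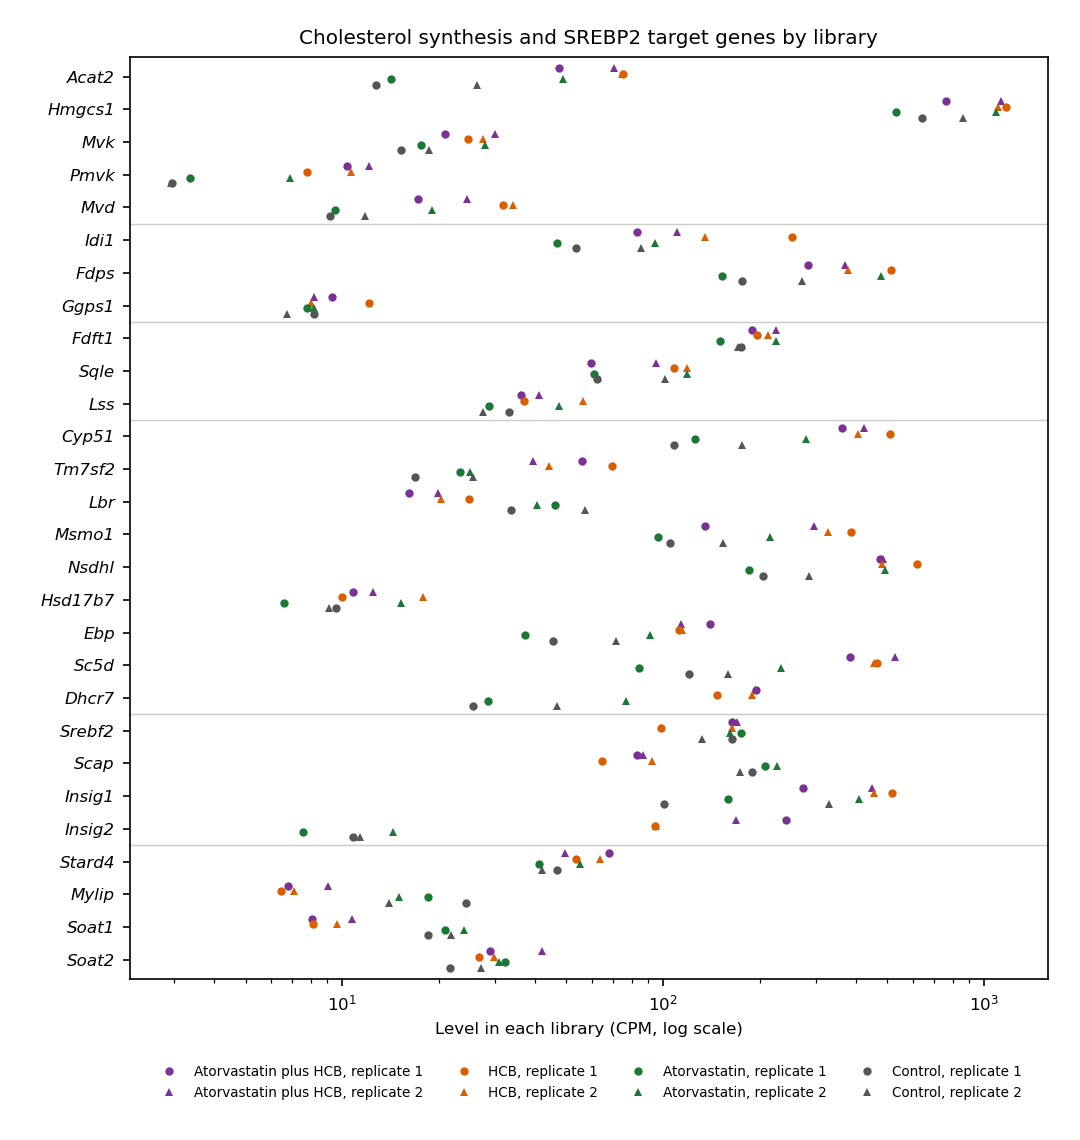
Levels of the 28 genes in each of the 8 libraries (CPM, log scale), with AT_HCB in purple, HCB in orange, AT in green and control in grey, circles for replicate 1 and triangles for replicate 2. Insig2, Dhcr7 and Sc5d stand apart between the HCB-labelled and other libraries, and for most enzymes the green triangle lies to the right of the green circle.

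Markers of other cells moved with the HCB label, and in bulk tissue fewer cells of a type and less RNA per cell cannot be told apart. Beside the counts below, 26.92% of all genes tested were called in HCB against control livers and 27.55% in AT_HCB against AT livers. Of 10 erythroid markers, 9 fell in both HCB comparisons, and their summed level was 513 to 573 CPM in AT_HCB and 805 to 1493 CPM in HCB libraries, against 2186 to 4022 CPM in AT and 3401 to 5346 CPM in control libraries. All 7 markers of dividing cells fell in both, with sums of 23.7 to 42.4 CPM in AT_HCB and 15.6 to 28.7 CPM in HCB libraries, against 361 to 365 CPM in AT and 214 to 528 CPM in control libraries. Of 7 neutrophil markers 6 were tested and fell in both, and the seventh was at 0 in every library. The hepatocyte markers, which include the defining gene Alb, summed to 166697 to 190946 CPM in AT_HCB, 125053 to 144130 CPM in HCB, 79875 to 142679 CPM in AT and 92123 to 154493 CPM in control libraries, and 3 of 8 rose and 1 fell in each HCB comparison. Of the macrophage, lymphocyte, endothelial, stellate and cholangiocyte markers, at most 2 of a list rose and at most 3 fell in either comparison. The part of these cells in the changes of the 28 genes was not tested.

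Levels were compared between genes per kilobase of exon, in CPM per kb. The length is that of all annotated exons of a gene, such as 1114 bases for Insig2 and 12374 for Fdft1. The order of genes therefore depends on how fully each is annotated. Hmgcs1 held the highest mean level of the set in HCB livers (309.98 CPM per kb), AT livers (220.9) and control livers (204), and Sc5d in AT_HCB livers (260.4). The neighbours Sc5d and Hmgcs1 in AT_HCB livers, at 219 to 302 and 207 to 308 CPM per kb, did not differ beyond their spread. Insig2 ranked 3 of 28 in AT_HCB livers and 8 in HCB livers, against 20 in AT livers and 19 in control livers. It thus stood among the upper ranks in HCB-labelled livers and among the lower ones elsewhere. Dhcr7 ranked 9 in AT_HCB and 11 in HCB livers, against 13 in AT and 16 in control livers. At the low end stood Soat1 in AT_HCB and HCB livers (2.14 and 2.01 CPM per kb), and Ggps1 in AT and control livers (2.52 and 2.35 CPM per kb). The mean summed level of the 20 enzymes was 3760 ± 666 CPM in AT_HCB, 4493 ± 393 CPM in HCB, 2643 ± 1395 CPM in AT and 2212 ± 501 CPM in control livers (SD, n = 2 each).

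Within a library, the ratio of a pair of related genes does not depend on how libraries are scaled. Tm7sf2 over Lbr, per kb, was 9.59 and 5.49 in AT_HCB and 7.73 and 6.04 in HCB libraries, against 1.40 and 1.72 in AT and 1.39 and 1.24 in control libraries. The lowest HCB-labelled ratio was above the highest of the others. Insig2 over Insig1 was 2.12 and 0.905 in AT_HCB and 0.436 and 0.502 in HCB libraries, against 0.113 and 0.0848 in AT and 0.257 and 0.0827 in control libraries. Insig1 was the more abundant of the pair per kb in 7 of 8 libraries, all but replicate 1 of AT_HCB. Which of a pair is ahead depends on the annotated lengths, here 1114 bases for Insig2 and 2664 for Insig1. Soat2 over Soat1 was 7.22 and 7.82 in AT_HCB and 6.59 and 6.24 in HCB libraries, against 3.11 and 2.59 in AT and 2.36 and 2.50 in control libraries. In all 3 pairs the HCB-labelled libraries lay above the others. Each pair holds a gene called in both HCB comparisons above, so the ratios are not independent of those calls. The pairs are given as a description with no test.

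**Figure D4:**
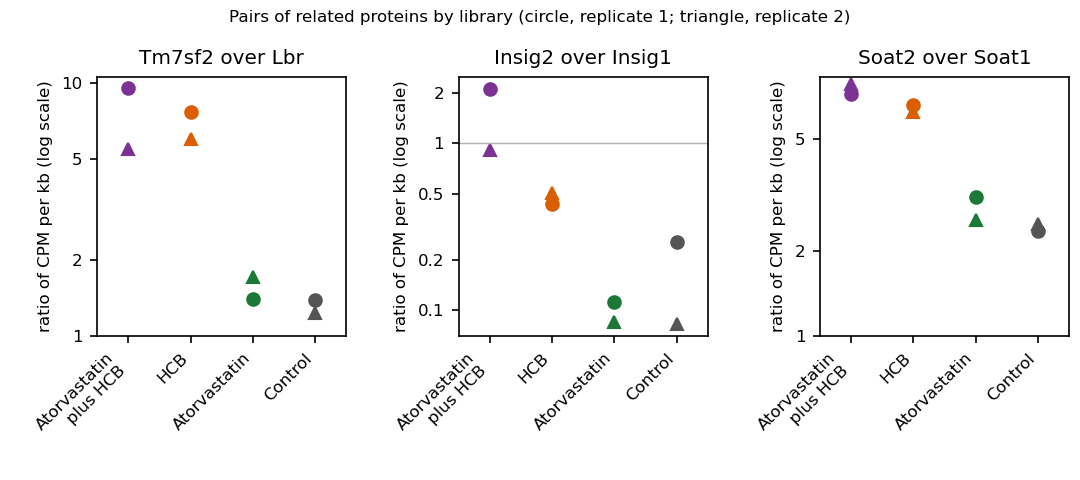
Ratios of 3 gene pairs in each library, as CPM per kb on a log scale, with AT_HCB, HCB, AT and control libraries from left to right, circles for replicate 1 and triangles for replicate 2. Tm7sf2 over Lbr lies at 5.49 or above in the HCB-labelled libraries and at 1.72 or below in the others, and the grey line at 1 marks equal levels.

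Atorvastatin, the agent aimed at this route, gave no call among the 28 genes. In AT against control livers edgeR called 0 genes of the 16591 tested (0%) and DESeq2 called 2 (0.00887%), none of them in the set; at an unadjusted p under 0.05, edgeR had 181 genes (1.09%) and 1 of the 28. Log2 changes were above 0 for 19 of 20 enzymes with a median of 0.25, against 0.01 over all genes. That direction rested on replicate 2 of AT, which lay above both control libraries for 18 of 20 enzymes, while replicate 1 of AT lay below both for 10 and above both for 1. Without replicate 2 of AT, 15 of 20 enzymes were below 0 and the median was -0.38; without replicate 1 of AT the median was 0.72. Without replicate 2 of control it was 0.53. AT libraries lay wholly above control libraries for 3 of the 28 genes and wholly below for 0, as for 10.59% and 10.51% of all genes. Of the genes with the smallest p, Pmvk had 3.35 and 6.87 CPM in AT livers, against 2.95 and 2.94 CPM in control livers (0.80 ± 0.36, edgeR unadjusted p = 0.0471, adjusted p = 1). Soat2 gave 0.37 ± 0.25 (edgeR unadjusted p = 0.16) and Mvk 0.43 ± 0.28 (edgeR unadjusted p = 0.161). The AT and control libraries are those with Kdm5d at 0.189 to 0.457 CPM and Afp at 11414 CPM or more under a label of male rats, so the comparison is one of libraries as labelled. The values of AT_HCB against AT livers above and of this comparison share the AT libraries.

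On top of HCB, most enzymes had log2 changes on the other side of 0. In AT_HCB against HCB livers edgeR again called 0 genes (0%) and DESeq2 called 52 (0.397%), none of them in the set; at an unadjusted p under 0.05 edgeR had 857 genes (5.17%) and 2 of the 28. Log2 changes were below 0 for 16 of 20 enzymes with a median of -0.26, against 0.00 over all genes. The median was -0.13 without replicate 1 of HCB and -0.16 without replicate 1 of AT_HCB, each with 13 of 20 below 0. AT_HCB libraries lay wholly above HCB libraries for 2 of the 28 genes and wholly below for 8, as for 17.94% and 16.89% of all genes. Insig2 had 242 and 169 CPM in AT_HCB livers, against 94.5 and 95.4 CPM in HCB livers (1.12 ± 0.31, edgeR unadjusted p = 0.00398, adjusted p = 0.892). Idi1 had 82.9 and 110.6 CPM in AT_HCB livers, against 252 and 136 CPM in HCB livers (-1.001 ± 0.40, edgeR unadjusted p = 0.0288). Mvd had 17.2 and 24.5 CPM in AT_HCB livers, against 31.6 and 34.1 CPM in HCB livers (-0.66 ± 0.33, edgeR unadjusted p = 0.0716). For all 3 genes the groups did not overlap. Without a filter on low counts, Insig2 passed (edgeR adjusted p = 0.0186). That fit moved p-values far more than changes. In HCB against control livers Insig2 was at 3.10 in both fits, with edgeR adjusted p = 0.000106 filtered and 3.72e-21 unfiltered.

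Whether the atorvastatin effect differed by HCB status was tested as an interaction, which called 0 genes (0%) in edgeR and 5 in DESeq2 (0.0222%), none of them in the set. At an unadjusted p under 0.05 edgeR had 391 genes (2.36%) and 2 of the 28. Insig2 had an interaction of 1.13 ± 0.44 (edgeR unadjusted p = 0.0255, adjusted p = 1), Mvd one of -1.11 ± 0.47 (edgeR unadjusted p = 0.0373) and Idi1 one of -1.03 ± 0.56 (edgeR unadjusted p = 0.0926). The average effect of atorvastatin over both HCB states, which uses all 8 libraries, called 0 genes (0%) in edgeR and 4 in DESeq2 (0.0177%), none of them in the set, with 601 genes (3.62%) and 1 of the 28 at an unadjusted p under 0.05. Its smallest p belonged to Insig2 (0.55 ± 0.22, edgeR unadjusted p = 0.0275), Pmvk (0.54 ± 0.25, edgeR unadjusted p = 0.0528) and Soat2 (0.35 ± 0.17, edgeR unadjusted p = 0.0699), all with an edgeR adjusted p = 0.99.

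**Figure D5:**
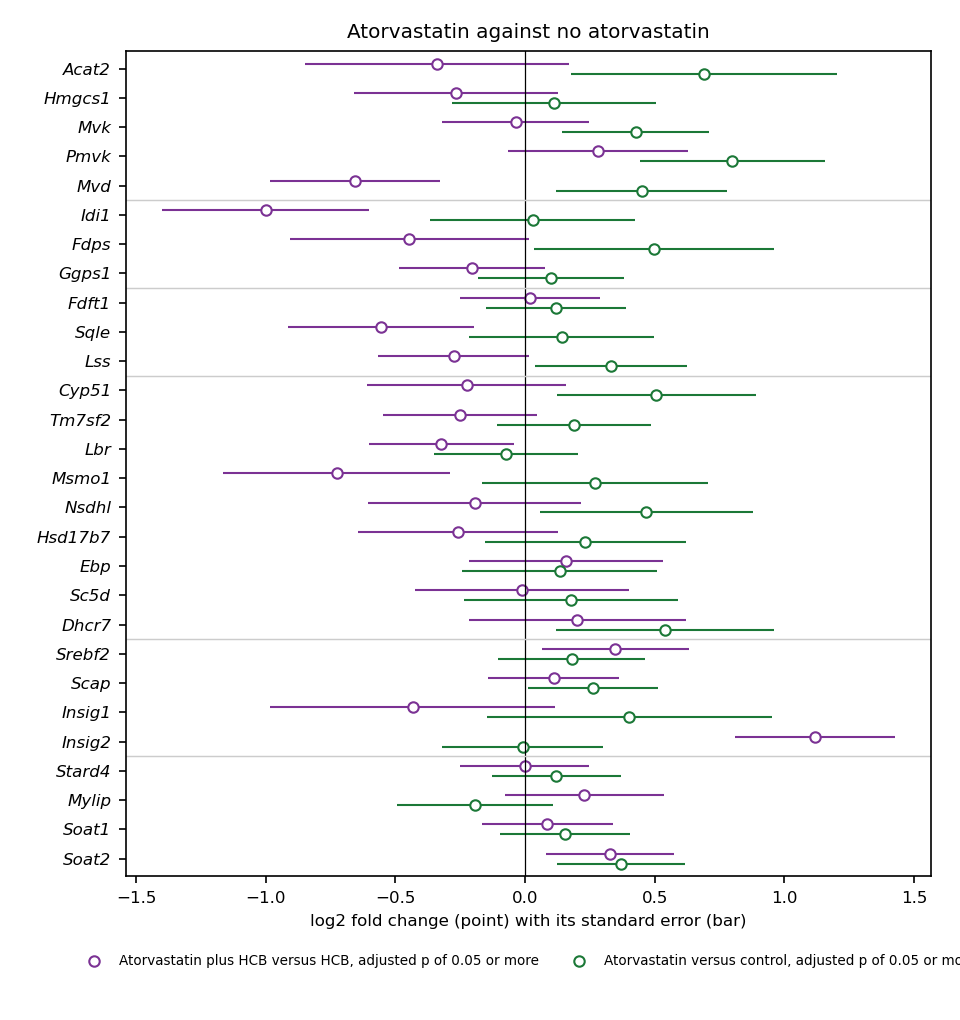
log2 fold changes (points) with their standard errors (bars) of the 28 genes in AT_HCB against HCB livers (purple) and in AT against control livers (green). All points are open because no gene had an adjusted p under 0.05, and 16 of 20 enzymes lie left of 0 in purple while 19 of 20 lie right of 0 in green; without replicate 2 of AT, 15 of 20 of the green changes are below 0.

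The enzymes differed most between replicates in the AT livers. The enzymes summed to 1657 CPM in replicate 1 and 3630 CPM in replicate 2 of AT, against 1857 and 2566 CPM in control livers. Between the replicates of AT, 19 of 20 enzymes were higher in replicate 2, by a median of 1.03 on the log2 scale, and 6.3% of all genes differed by more in that direction. In control livers 15 of 20 were higher in replicate 2, by a median of 0.52. In AT_HCB livers the enzymes differed by a median of 0.27, and in HCB livers by -0.02 with 9 of 20 higher in replicate 2. Replicate 1 of AT and of control were also the libraries with the largest share of reads outside exons, 34.04% and 27.7%. Summed hepatocyte markers differed in the same direction, at 79875 and 142679 CPM in replicates 1 and 2 of AT and at 92123 and 154493 CPM in those of control. In AT livers stellate markers summed to 971 and 3251 CPM in replicates 1 and 2, and erythroid markers went the other way, at 4022 and 2186 CPM. The part of that share and of these markers in the enzyme levels was not tested.

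Beyond the 28 genes, the other genes of the pathway were counted from lists of related roles, in HCB against control livers and then in AT_HCB against AT livers. Of 7 further sterol genes, chiefly electron donors, 5 rose and 0 fell in the first and 3 rose and 0 fell in the second, where 26.92% and 27.55% of all genes were called, with median log2 changes of 1.13 and 1.06. Among them Cyb5b, a cytochrome b5, changed by 1.37 ± 0.24 in HCB against control livers, Por, the reductase that feeds electrons to Cyp51 and Sqle, by 2.35 ± 0.47, and Cyb5r3, which reduces cytochrome b5, by 1.58 ± 0.35. Electrons from these genes feed the oxygenases of the route. Of 9 tested genes that process or degrade SREBP2 and Insig proteins, 2 rose and 1 fell in each comparison, with Erlin1 at 1.01 ± 0.30 and the ubiquitin ligase Rnf145 at -0.77 ± 0.24 in HCB against control livers. Of 12 tested genes that use isoprenoids, 2 rose and 1 fell in each, with the dolichol synthase subunit Dhdds at 0.96 ± 0.24, the prelamin A protease Zmpste24 at 0.96 ± 0.26 and the coenzyme Q side-chain synthase subunit Pdss1 at -1.24 ± 0.35 in HCB against control livers. Of 10 genes of oxysterol response and efflux, 3 rose and 0 fell in each, namely in the first the LXR gene Nr1h3 at 1.30 ± 0.24, the sterol hydroxylase Cyp27a1 at 1.10 ± 0.27 and the lysosomal exporter Npc1 at 0.76 ± 0.24. For the last 3 lists, 3 of 9, 3 of 12 and 3 of 10 genes called are close to those shares of all genes. Their median log2 changes were 0.060 and 0.16, 0.32 and 0.31, and 0.58 and 0.56, against -0.09 and -0.11 over all genes. In the AT comparisons none of these lists had a gene past the threshold in edgeR.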

How the data were processed

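RNA from 8 rat livers, 2 in each of 4 groups, was analysed from the read counts per gene that the authors deposited. Per the submitters' processing notes, the authors trimmed reads with fastp 0.23.4, aligned them with STAR 2.7.10b, and used DESeq2 1.42.1 with R 4.3.2 for tests of their own. Per the file headers, the deposited counts come from featureCounts 2.0.6 with exons of Ensembl release 111, build mRatBN7.2. Its command set neither strandedness nor multimapping, and did not ask for pairs, so mates appear to have been counted singly. Groups were taken from the labels, and 0 columns were left out.

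With R 4.3.3, edgeR 4.0.16 was fitted to all 4 groups together: TMM scaling, filterByExpr, and the robust quasi-likelihood test on 4 residual degrees of freedom. After the filter 16591 genes remained, and p-values were adjusted over them by the Benjamini-Hochberg method, with a threshold of 0.05. The common biological coefficient of variation was 0.295. Changes are log2 fold changes with their standard error. Levels are CPM computed from the deposited counts with TMM library sizes, and levels per kb divide them by the deposited exonic length.

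The members and lists were chosen with earlier results of these data known. All 28 genes are named in the HCB comparisons. In the others, genes past the threshold are named, or the 3 with the smallest p where fewer passed, and from each further pathway list up to 3 genes past the threshold in HCB against control livers. A gene that this rule picks is not reported here. Other settings tried were no filter, DESeq2 1.42.0, edgeR with DESeq2 size factors, a filter of 1 CPM in 2 libraries, no robust estimation, a replicate block, the compared libraries alone, omission of replicate 1 of AT and of control (the largest shares of reads outside exons), and each library left out. Scaling by total counts was chosen after seeing the data. The steps were tested on simulated data. Data were handled with the R package data.table (version 1.17.8), and figures drawn with matplotlib 3.10.9 in Python 3.11.15.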

Additional observations from a re-analysis of the deposited data

How the results depend on the processing

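The number of genes called in HCB against control livers was 10 to 18 under the alternatives that keep all libraries or leave out replicate 1 of both AT and control, and 6 to 17 with 1 library left out. In AT_HCB against AT livers it was 7 to 12 with all libraries, 5 without replicate 1 of both AT and control, and 3 to 13 with 1 library left out. Pmvk, Dhcr7, Scap, Insig2 and Soat1 passed in the first comparison under all 17 alternatives, as did Dhcr7 and Insig2 in the second. Without a filter on low counts, 1 gene, Insig2, was called in AT_HCB against HCB livers. It also added Ebp, Fdps, Insig1 and Nsdhl in the first HCB comparison, and Acat2, Cyp51 and Ebp in the second. These added calls came with p-values that moved far more than the changes. In the first comparison Acat2 was at 1.93 in both fits, with edgeR adjusted p = 0.0235 filtered and 1.04e-09 unfiltered. Scaling by total counts lost Msmo1 in the first (edgeR adjusted p = 0.0604), and Pmvk and Tm7sf2 in the second. The other atorvastatin comparisons stayed at 0 under every alternative run. A replicate block, with the same number treated as a pair, gave 16 and 10 genes in the HCB comparisons and 0 in the others. Same-numbered replicates deviated together with a correlation of 0.27 between control and AT, and of -0.05 to 0.05 otherwise. Replicate 1 of control, of HCB and of AT also shared the high shares of reads mapped to several places given above. The main fit left the replicate number out, and whether it stands for a shared step of handling was not tested.

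Scaling by total counts moved the median of all genes by -0.43 in HCB against control livers and by -0.622 in AT_HCB against AT livers. Relative to those shifts, the median over the 20 enzymes was 1.11 and 0.54. Under it, log2 changes turned to -0.026 for Ggps1, -0.19 for Fdft1, -0.029 for Stard4 and -0.20 for Soat2 in the first comparison. In the second they turned to -0.32 for Hmgcs1, -0.41 for Mvk, -0.0079 for Mvd, -0.10 for Idi1, -0.47 for Fdps, -0.50 for Ggps1, -0.44 for Fdft1, -0.56 for Lss, -0.063 for Msmo1, -0.033 for Nsdhl, -0.46 for Hsd17b7, -0.18 for Insig1, -0.32 for Stard4 and -0.45 for Soat2. None of these genes had been called there.

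Without replicate 1 of both AT and control, the second comparison gave -0.21 for Hmgcs1, -0.14 for Mvk, -0.55 for Fdps, -0.12 for Fdft1, -0.30 for Lss, -0.0052 for Msmo1, -0.035 for Nsdhl, -0.40 for Hsd17b7, 0.048 for Srebf2 and -0.18 for Insig1. Srebf2 gave 0.0015 with DESeq2, 0.000104 with its size factors and 8.9e-05 with the compared libraries alone, and Lss -0.024 with the stricter filter. With 1 library left out, values ranged from -0.59 to 0.17 for Srebf2 in the first comparison. In the second they ranged from -0.053 to 0.056 for Srebf2, -0.20 to 0.85 for Hmgcs1, -0.13 to 0.54 for Mvk, -0.55 to 1.10 for Fdps, -0.12 to 0.47 for Fdft1, -0.30 to 0.43 for Lss, -0.030 to 1.39 for Nsdhl, -0.39 to 0.83 for Hsd17b7, -0.18 to 1.18 for Insig1, -0.62 to 0.35 for Sqle, -0.18 to 1.17 for Msmo1 and -0.094 to 0.44 for Soat2. The cause was not tested. The scarcest of the 28 genes had 116 reads in a library, and the most abundant 52546, so counting error is small beside the spread between libraries. With each rat sequenced as a library of its own, differences between rats and between libraries cannot be told apart.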
